A study of Mus musculus with 6 samples.

Results

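Cytosolic ribosomal protein genes were described in embryonic mouse handpads that lack the transcription factor Grhl3. Members were the protein-coding genes whose symbols start with Rpl or Rps followed by a number, together with Rpsa, Rplp0, Rplp1 and Rplp2, and genes with a pseudogene name were left out. The rule found 96 of 34989 genes, through 553 annotated transcripts. Of these, 46 code for proteins of the large ribosomal subunit and 31 for proteins of the small one, and both sets together are called structural members here. A further 7 are like-named genes, which are relatives of a structural member (Rpl22l1, for example), and 1 is Rps27rt, a retrocopy. The remaining 11 match the rule by symbol alone, since 10 of them code for kinases or kinase-like proteins (the Rps6k genes) and Rps19bp1 codes for a protein that binds Rps19.

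The study set 3 Grhl3 knockout (Grhl3-/-) libraries against 3 wild-type libraries, all from C57BL/6 handpads at E14.5 (embryonic day), the stage at which the digits become separate. Polyadenylated RNA was sequenced with a stranded kit. Whether the replicates are separate embryos is not stated in the labels, so a p-value here reflects the spread among these libraries, part of which may be technical. The labels do not say which bases of Grhl3 were deleted.

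Every ribosome has a small subunit, which reads the mRNA, and a large subunit, which joins the amino acids, and most structural members supply a single protein copy per ribosome. The mRNAs of these genes begin with a short stretch of pyrimidines (the TOP motif), through which mTORC1 and the binding protein Larp1 set their translation. They are short, abundant, and copied into very many processed pseudogenes across the mouse genome. In limb and skin, as in other growing tissues, their supply follows growth, and a shortage of single members is known to activate p53.

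Grhl3 itself was measured at 3.11, 2.86 and 2.95 CPM (counts scaled to the library's TMM-adjusted size) in the knockout libraries, against 14.3, 45.7 and 18.5 CPM in wild type. Its log2 fold change was -3.14 ± 0.41 (SE), with an adjusted p of 0.0221 in edgeR's quasi-likelihood test with Benjamini-Hochberg adjustment. That call was lost without any single knockout library (adjusted p from 0.0759 to 0.162) and without wild-type replicate 3 (adjusted p = 0.0806). It was also lost with limma-voom (adjusted p = 0.0743) and with Y-linked expression as a covariate in edgeR (log2 fold change -2.23, adjusted p = 0.073). The knockout libraries held 50347529, 47642524 and 56037639 estimated counts and the wild-type libraries 39587367, 48984542 and 38052692. Limb mesenchyme was present in every library, with summed levels of 10 marker genes between 1333 and 1611 CPM in knockout libraries and between 1459.9 and 1786 CPM in wild-type libraries. Summed Y-linked expression was 3.39, 4.12 and 4.42 CPM in the knockout libraries, against 5.36, 289.6 and 341 CPM in the wild-type libraries, so wild-type replicate 1 went with the knockout libraries in this measure. In bulk RNA, fewer cells of a type and less RNA per cell cannot be told apart.

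Ribosomal protein mRNA made up much of each library, and the wild-type libraries were spread more widely than the difference between the genotypes. The members took 7.86, 8.28 and 8.49% in the knockout libraries, against 9.71, 6.19 and 6.86% in the wild-type libraries. TPM divides the counts of each transcript by its effective length, which is described below and differs between libraries. By TPM the members took 25.9, 26.7 and 27.1% in the knockout libraries, against 29.01, 22.04 and 23.9% in the wild-type libraries. Wild-type replicate 1 had the highest share and wild-type replicates 2 and 3 the lowest on both scales, and the 3 knockout libraries lay between them. The count share averaged 8.21 ± 0.321% in knockout and 7.59 ± 1.87% in wild-type libraries (SD, n = 3 each), a difference smaller than the wild-type SD. Without wild-type replicate 1 the difference in count share was 1.69 percentage points in place of 0.626, and without wild-type replicate 2 it was -0.0751.

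Mean transcript length per count stood in the reverse order of these shares, and the length offset of the libraries did so in part. The deposited tables give an effective length for each transcript, and in each library the length minus the effective length was the same for all transcripts over 5000 bases. This length offset was 423, 423 and 418 bases in the knockout libraries, against 400, 429 and 435 bases in the wild-type libraries. Mean transcript length per count was 3480.4, 3385 and 3347 bases in the knockout libraries, against 3148, 3625 and 3601 bases in the wild-type libraries. Wild-type replicate 1 had the lowest value of both measures and wild-type replicates 2 and 3 the highest, but the offset was larger in wild-type replicate 3 than in wild-type replicate 2, which had the lowest share, and was the same in knockout replicates 1 and 2, and the members' own short mRNAs enter the mean length. Among all tested genes whose transcripts were under 700 bases, the median log2 ratio of wild-type replicate 1 to the mean of wild-type replicates 2 and 3 was 0.54, and over 4000 bases it was -0.22. For the structural members under 700 bases that median was 0.83, over 22 genes, and for those of 1000 to 2000 bases it was 0.52, over 11 genes. The part of transcript length in the ribosomal protein shares was not tested.

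**Figure D1:**
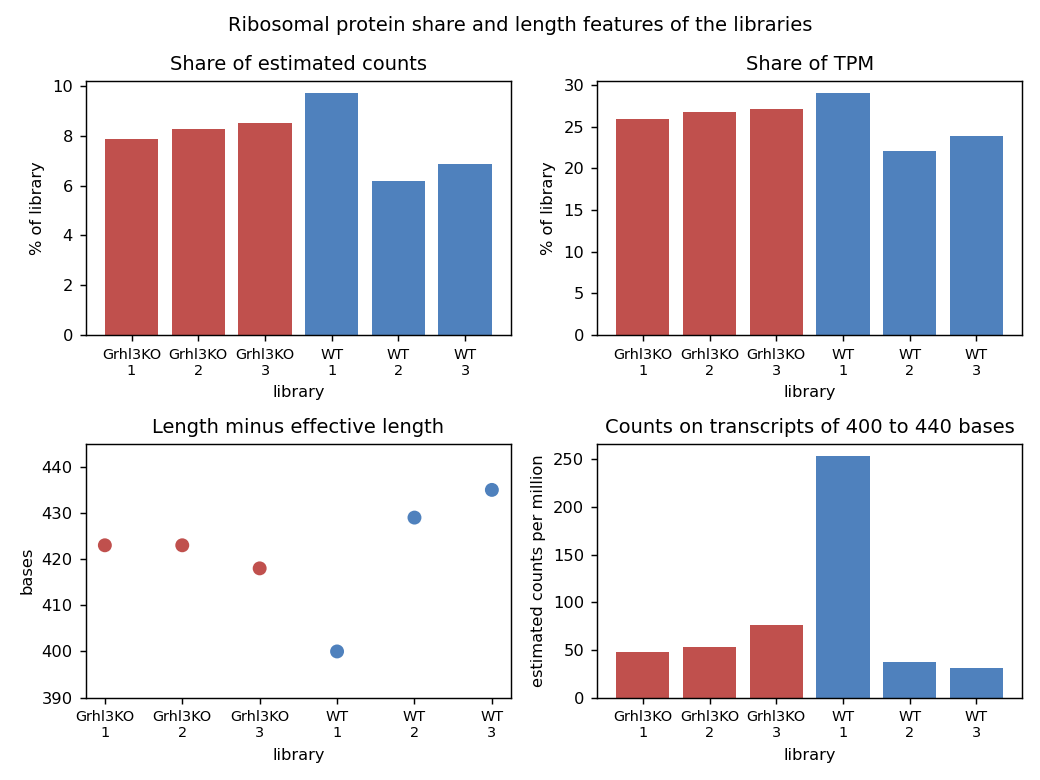
Each panel plots 1 value per library, with knockout libraries in red on the left and wild-type libraries in blue on the right: the members' share of estimated counts and of TPM (%), the length offset (bases, on an axis that starts at 390), and CPM on transcripts of at least 400 and under 440 bases. Wild-type replicate 1 has the highest shares, the lowest offset of 400 bases and 254 CPM on the short transcripts, against 30.7 to 76.5 in the other libraries.

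Gene by gene, the structural members moved together across the libraries. Wild-type replicate 1 had the highest CPM for 72 of 76 tested structural members, and wild-type replicate 2 had the lowest for 66. All 3 knockout libraries lay below wild-type replicate 1 and above both other wild-type libraries for 67 of them. Relative to its own mean over the 6 libraries, the median structural member stood at 0.01, 0.07 and 0.14 log2 units in the knockout libraries, against 0.39, -0.37 and -0.24 in the wild-type libraries.

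**Figure D2:**
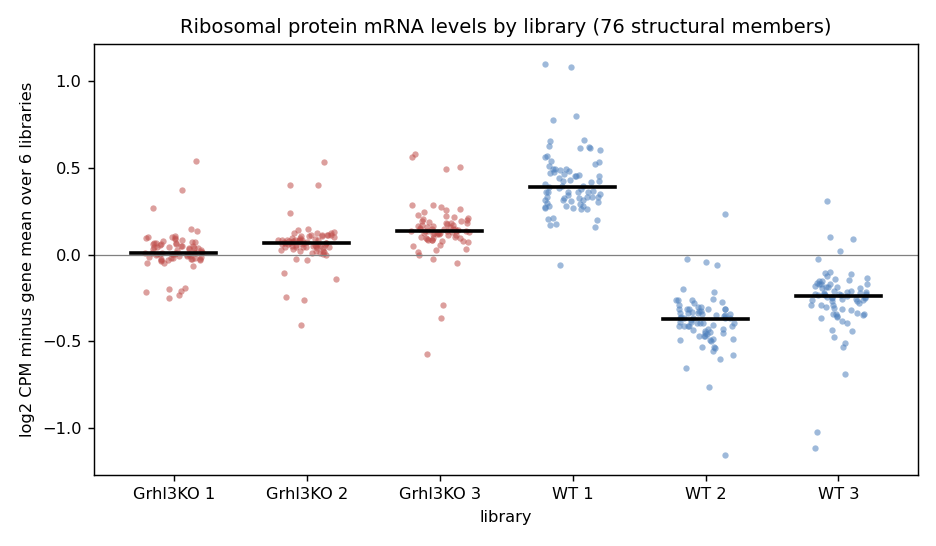
Each point is 1 structural member in 1 library, as log2 CPM minus that gene's mean over the 6 libraries (vertical axis), with the median as a black bar, knockout libraries in red and wild-type libraries in blue. The median lies at 0.39 in wild-type replicate 1 and at -0.37 and -0.24 in wild-type replicates 2 and 3, with the 3 knockout libraries between 0.01 and 0.14.

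No member was called between the genotypes. In edgeR's quasi-likelihood test 0 of 92 tested members passed an adjusted p of 0.05, where 0.431% of all 16938 tested genes did, and 1 member had an unadjusted p under 0.05, against 7.22% of all genes. The likelihood ratio test of edgeR, DESeq2 and limma-voom also called 0 members. The fold changes were small, with a median of 0.11 over the 76 structural members, beside -0.00449 over all tested genes. Of these members, 69 had a positive and 7 a negative value, from -0.46 for Rps28 to 0.85 for Rps2, and 75 lay within 0.5 of 0. The median SE was 0.196 for structural members, against 0.147 for all genes. Large subunit members had a median of 0.10 over 45 tested genes and small subunit members 0.11 over 31. The genotypes did not overlap in CPM for 6 members (Rpl5, Rps29, Rps6ka1, Rps6ka2, Rps6kc1 and Rps6kl1), that is for 2 structural members and 4 kinase genes, where 12.9% of all genes did not overlap. For Rpl5 they overlapped once counts on near-identical copies were added.

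**Figure D3:**
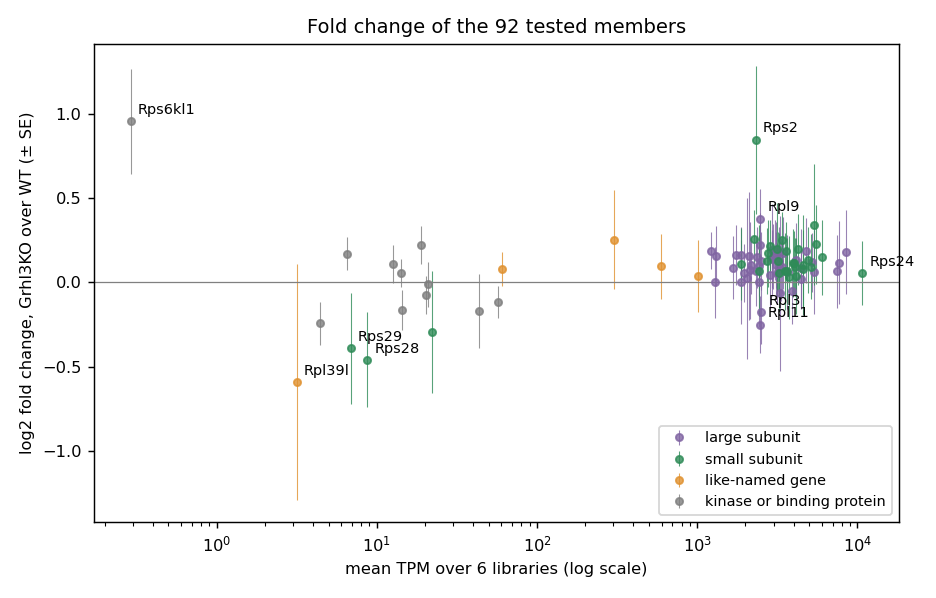
The 92 tested members are plotted by mean TPM over the 6 libraries (horizontal log axis) and log2 fold change of knockout over wild type with its SE (vertical axis), coloured by class. Most structural members sit above 1000 TPM and slightly above 0, while Rps2 at 0.85 and the weakly expressed Rps6kl1 at 0.95 lie highest.

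The count of 0 rested on wild-type replicate 1. Without it, 11 of 92 members were called in edgeR's quasi-likelihood test, all of them higher in knockout, where 0.789% of all tested genes were called higher. Among them were Rps2, Rps12, Rps14, Rps27l and Rpl9, and the median over all tested members became 0.37. With that library left out, both remaining wild-type libraries had high Y-linked expression and all knockout libraries low Y-linked expression, so genotype and embryo sex cannot be told apart in that fit. The 2 remaining wild-type libraries also had the highest length offsets of all, and the part of either in these calls was not tested. Leaving out any other library gave 0 called members, with medians from -0.03 to 0.13. With the length offset as a covariate over all 6 libraries, 1 of 92 members was called, beside 1.04% of all genes. That member was Rps2 (log2 fold change 1.10, adjusted p = 0.00563, edgeR's quasi-likelihood test). Its reads are divided with near-identical copies, and this fit was not run with copies added. The call is not read as a result about the members.

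Among the small subunit members, Rps24, whose product takes part in processing of the small subunit's RNA, had the highest mean TPM of all. Its levels were 11593, 11909 and 11108 TPM in the knockout libraries, against 10265, 10337 and 9286 TPM in the wild-type libraries. Its TPM was higher in each knockout library than in any wild-type library, whereas its CPM overlapped between the genotypes. The log2 fold change of Rps24 from counts was 0.06 ± 0.19 (adjusted p = 0.994 in edgeR's quasi-likelihood test). Its TPM includes a transcript of 461 bases, Rps24-203, which was assigned counts almost only in the knockout libraries. The part of that transcript in the TPM values was not tested. Rps14, which lines the mRNA path of the subunit's platform, had 6176, 6021 and 6201 TPM in the knockout libraries, against 7571, 4830.0 and 5057 TPM in the wild-type libraries. For Rps12, a protein of the subunit's beak, the levels were 5524, 5821 and 6766 TPM in the knockout libraries, against 6486, 4007 and 4486 TPM in the wild-type libraries. In Rps14 wild-type replicate 1 was above the knockout libraries and in Rps12 it lay among them, while wild-type replicates 2 and 3 were below them in both, and the log2 fold changes were 0.15 ± 0.22 and 0.23 ± 0.23 (SE). Rps18, a protein of the subunit's head, reached 4132, 6886 and 6814 TPM in the knockout libraries, against 6923, 3375 and 3952 TPM in the wild-type libraries, and knockout replicate 1 stood well below the other 2 knockout libraries. Its fold change of 0.34 ± 0.36 on the log2 scale was smaller than its SE.

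Of the small subunit proteins near the mRNA entry site, Rps2 and Rps3 had 2 of the 6 highest fold changes from a mean of 50 TPM, without a call. Rps2 (GRCm38 chr17:24718116-24721929) had 1801, 1791 and 1853 CPM in the knockout libraries, against 1901, 556 and 572 CPM in the wild-type libraries. Wild-type replicate 1 was at the level of the knockout libraries, while wild-type replicates 2 and 3 were far below it, and the log2 fold change was 0.85 ± 0.44 (adjusted p = 0.785, edgeR's quasi-likelihood test). Rps3 had 1735, 1752 and 1857 CPM in the knockout libraries, against 1856, 1268 and 1346 CPM in the wild-type libraries, with a log2 fold change of 0.26 ± 0.17. Rps7, which is also a binding partner of Mdm2, had 1393, 1406 and 1509 CPM in the knockout libraries, against 1477, 1014 and 1125 CPM in the wild-type libraries. For Rps3 and Rps7 alike, wild-type replicate 1 was not apart from the knockout libraries and both other wild-type libraries were lower, and the log2 fold change of Rps7 was 0.25 ± 0.16. The X-linked Rps4x had 2042, 2166 and 2162 CPM in the knockout libraries, against 2479, 1701 and 1791 CPM in the wild-type libraries, with a log2 fold change of 0.09 ± 0.17.

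Of the 8 members with the highest TPM, 4 belong to the large subunit. Rpl13a, also known from a complex that represses inflammatory mRNAs, had 8125, 8842 and 10314 TPM in the knockout libraries, against 9749, 6763 and 7097 TPM in the wild-type libraries. Rpl41, a very short basic peptide, had 8031, 7620.0 and 8552 TPM in the knockout libraries, against 8916, 6296 and 6807 TPM in the wild-type libraries. Rpl26 had 6982, 7198 and 7274 TPM in the knockout libraries, against 8806, 6283 and 7998 TPM in the wild-type libraries, and Rpl31, near the exit of the peptide tunnel, had 5184, 5381 and 5841 TPM in the knockout libraries, against 6199, 4342 and 5144 TPM in the wild-type libraries. Each of these overlapped between the genotypes. With near-identical copies added, Rpl26 had 998, 1051 and 1127 CPM in the knockout libraries, against 1390, 775 and 869 CPM in the wild-type libraries. Wild-type replicate 3 was thus below the knockout libraries by CPM and above them by TPM. The fold changes of all 8 members lay between 0.06 and 0.34 on the log2 scale, with Rps24 lowest and Rps18 highest.

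Rpl5 and Rpl11 join the 5S RNA in a particle that also binds Mdm2 and so restrains its action on p53. Rpl5 had 579, 581 and 525 CPM in the knockout libraries, against 505, 458 and 517 CPM in the wild-type libraries. Every knockout library was above every wild-type library, by a small margin, with a log2 fold change of 0.19 ± 0.11 (adjusted p = 0.835, edgeR's quasi-likelihood test). With near-identical copies added, Rpl5 had 1773, 1977 and 1949 CPM in the knockout libraries, against 2044, 1407 and 1562 CPM in the wild-type libraries. The genotypes then overlapped, with wild-type replicate 1 the highest library. Rpl11 had 675, 718 and 748 CPM in the knockout libraries, against 1069, 759 and 717 CPM in the wild-type libraries, with a log2 fold change of -0.25 ± 0.17 (adjusted p = 0.881). It was the lowest fold change among members with a mean TPM of at least 50, and wild-type replicate 1 was the highest library while the other 5 overlapped. Rpl11 lies on chromosome 4, 454635 bases from the deleted gene.

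Of the other large subunit members, Rpl9 had the smallest p of any structural member. It was measured at 1383, 1476 and 1459 CPM in the knockout libraries, against 1407, 903 and 1012 CPM in the wild-type libraries, where again wild-type replicate 1 did not stand apart from the knockout libraries. The log2 fold change was 0.38 ± 0.18 (adjusted p = 0.736, edgeR's quasi-likelihood test). Rpl3, a protein of the peptidyl transferase region, had 1725, 1191 and 1168 CPM in the knockout libraries, against 1763, 1389.8 and 1453 CPM in the wild-type libraries, where knockout replicates 2 and 3 lay below all other libraries, and its log2 fold change was -0.17 ± 0.19. Rpl10, an X-linked protein that joins the subunit late in its assembly, had 1282, 1315 and 1276 CPM in the knockout libraries, against 1781, 1117 and 1118 CPM in the wild-type libraries, with a log2 fold change of -0.05 ± 0.20. Rplp1, a protein of the stalk that recruits translation factors, had 212, 222 and 361 CPM in the knockout libraries, against 519, 161 and 152 CPM in the wild-type libraries . Its libraries spread widely within both genotypes, and its log2 fold change was -0.07 ± 0.46. Rpl39, X-linked and part of the tunnel wall, had 439.5, 440.1 and 503 CPM in the knockout libraries, against 689, 319 and 374 CPM in the wild-type libraries, with a fold change of 0.00 ± 0.26 on the log2 scale.

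The ratio between the subunits separated the genotypes in the members' own counts and no longer did so once counts on all near-identical copies were added. The ratio of large to small subunit counts was 1.28, 1.26 and 1.23 in the knockout libraries, against 1.29, 1.34 and 1.33 in the wild-type libraries. Every knockout library had the lower ratio, with means of 1.25 ± 0.0232 in knockout and 1.32 ± 0.0257 in wild type (SD, n = 3 each). Leaving out Rps2 gave 1.34, 1.32 and 1.29 in the knockout libraries, against 1.35, 1.37 and 1.36 in the wild-type libraries. When counts on near-identical copies in other genes were added to each subunit, the ratios were 1.357, 1.364 and 1.342 in the knockout libraries, against 1.362, 1.399 and 1.385 in the wild-type libraries. The genotypes then overlapped, since wild-type replicate 1 lay below knockout replicate 2. With only genes named as pseudogenes (-ps) added, the ratios were 1.306, 1.298 and 1.273 in the knockout libraries, against 1.308, 1.346 and 1.334 in the wild-type libraries, and did not overlap. By TPM the ratios were 1.273, 1.249 and 1.258 in the knockout libraries, against 1.283, 1.318 and 1.330 in the wild-type libraries, without overlap, and they overlapped with either addition.

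The shortest members were hardly counted at all. Rpl36, with a single annotated transcript of 404 bases, had 1, 0 and 0 counts in the knockout libraries, against 173, 2 and 1 in the wild-type libraries. The 173 counts stood in the only library whose length offset, 400 bases, was below that transcript's length. Rpl36 did not pass the filter on low counts, nor did Rps27rt, Rpl3l and Rpl10l. Rps29, Rps28 and Rps21 passed it with few counts. The coding transcript Rps29-201 has 390 bases and held at most 1 count per library, and 11 to 18 counts per library sat on Rps29-202, a transcript with a retained intron. Summed per gene, Rps29 had 0.264, 0.232 and 0.309 CPM in the knockout libraries, against 0.370, 0.361 and 0.329 CPM in the wild-type libraries, a log2 fold change of -0.39 ± 0.33, and no overlap between the genotypes. Rps28 had 0.852, 1.07 and 0.675 CPM in the knockout libraries, against 1.37, 0.963 and 1.24 CPM in the wild-type libraries, of which 20.8 to 48 counts per library came from the retained intron transcript Rps28-207, and its log2 fold change of -0.46 ± 0.28 was the lowest of the structural members. Its coding transcript Rps28-203, of 437 bases, had 12.5, 12.3 and 15.3 counts in the knockout libraries, against 21.2, 1.25 and 1 counts in the wild-type libraries. Rps21 had 0.913, 0.885 and 1.15 CPM in the knockout libraries, against 1.82, 0.702 and 1.11 CPM in the wild-type libraries, with a log2 fold change of -0.29 ± 0.36. Its coding transcript Rps21-201 had 5 counts in wild-type replicate 1 and 0 in the other libraries. Rpl38 was counted on Rpl38-203 alone, which has 457 bases, with 4319, 4088 and 6822 counts in the knockout libraries, against 7153, 3036 and 1714 counts in the wild-type libraries. Its other 3 annotated transcripts, of 345 to 371 bases, were at 0 in every library.

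The 5 tested like-named genes had log2 fold changes smaller than their SEs. Rpl22l1 had 1071, 933 and 951 TPM in the knockout libraries, against 1256, 844 and 1036 TPM in the wild-type libraries, below its relative Rpl22, which ranged from 2106 to 2183 TPM in knockout and from 1773 to 2718 TPM in wild type. Rps27l, a p53 target, had 334, 312 and 332 TPM in the knockout libraries, against 345, 208 and 271 TPM in the wild-type libraries, and the fold change of 0.25 ± 0.29 on the log2 scale was also among those 6. Wild-type replicate 1 was again above the knockout libraries and the other wild-type libraries were below them. Rps27 ranged from 4113 to 4625 TPM in knockout and from 3308 to 6819 TPM in wild type. Rpl36al had 612, 619 and 631 TPM in the knockout libraries, against 681, 513 and 534 TPM in the wild-type libraries, and the X-linked Rpl36a 1688, 1686 and 1687 TPM in the knockout libraries, against 1674, 1497 and 1745 TPM in the wild-type libraries. Their libraries overlapped, as did those of Rpl7l1 with 60.3, 63.1 and 58.2 TPM in the knockout libraries, against 56.9, 59.3 and 64.2 TPM in the wild-type libraries, while Rpl7 had 3385, 3718 and 3223 TPM in the knockout libraries, against 3218, 3216 and 3535 TPM in the wild-type libraries. Log2 fold changes were 0.04 ± 0.21 for Rpl22l1, 0.09 ± 0.20 for Rpl36al and 0.08 ± 0.10 for Rpl7l1. Rpl39l, enriched in testis, had 0.847 to 4.38 TPM in knockout and 1.15 to 5.27 TPM in wild type, with a log2 fold change of -0.59 ± 0.70.

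The 10 kinase genes had log2 fold changes from -0.24 for Rps6ka5 to 0.95 for Rps6kl1. Rps6kb1, the S6 kinase that acts below mTORC1, had 91.7, 91.03 and 85.6 CPM in the knockout libraries, against 89.3, 93.8 and 107 CPM in the wild-type libraries, with a log2 fold change of -0.11 ± 0.09. Its relative Rps6kb2 had 12.7, 13.2 and 15.3 CPM in the knockout libraries, against 15.7, 15.4 and 14.99 CPM in the wild-type libraries, with a log2 fold change of -0.16 ± 0.12. For both genes the genotypes overlapped. Rps6ka1, a kinase below ERK, had 49.9, 49.6 and 53.01 CPM in the knockout libraries, against 48.2, 45.4 and 37.02 CPM in the wild-type libraries, with every knockout library above every wild-type library and a log2 fold change of 0.22 ± 0.11 (adjusted p = 0.775, edgeR's quasi-likelihood test). Rps6ka2 had 33.02, 35.95 and 31.9 CPM in the knockout libraries, against 27.5, 31.9 and 30.1 CPM in the wild-type libraries, with a log2 fold change of 0.17 ± 0.10. The lowest knockout library and the highest wild-type library of Rps6ka2 were nearly level. Rps6kl1, a kinase-like gene at the low end of expression, had 0.853, 0.821 and 0.892 CPM in the knockout libraries, against 0.502, 0.302 and 0.531 CPM in the wild-type libraries, with the smallest p of all members (log2 fold change 0.95 ± 0.31, adjusted p = 0.441). All 3 knockout libraries were above all 3 wild-type libraries for it. Rps6kc1 had 38.7, 41.2 and 38.2 CPM in the knockout libraries, against 37.5, 38.1 and 38.1 CPM in the wild-type libraries, with a log2 fold change of 0.05 ± 0.08, again with its lowest knockout and highest wild-type library nearly level. Log2 fold changes of the remaining kinases were -0.01 ± 0.13 for the X-linked Rps6ka3, -0.07 ± 0.11 for the X-linked Rps6ka6, 0.11 ± 0.11 for Rps6ka4 and -0.24 ± 0.13 for Rps6ka5, which like Rps6ka4 acts on chromatin. Rps19bp1 had 14.9, 16.2 and 18.4 CPM in the knockout libraries, against 25.8, 14.00 and 15.99 CPM in the wild-type libraries, with a log2 fold change of -0.17 ± 0.22, and for this gene wild-type replicate 1 was the highest library.

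Counts of several members were divided with near-identical copies elsewhere in the genome. Transcripts of other genes that matched a member's coding sequence with at least 90% identity over at least 80% of the shorter sequence came to 1107, from 1083 genes, and 76 structural members had at least 1. Many of these copies are annotated as processed pseudogenes, and some as protein-coding genes. They held 0.529, 0.582 and 0.590% of all counts in the knockout libraries, against 0.583, 0.488 and 0.547% of all counts in the wild-type libraries. Of the structural members, 54 had under 1% of their combined counts on copies and 11 had over 10%, namely Rpl3, Rpl5, Rpl10, Rpl10a, Rpl11, Rpl13a, Rpl17, Rpl19, Rps2, Rps6 and Rps18. The division of reads between these 11 and their copies is uncertain. Sequence outside the coding part was not compared. Within the coding sequence few positions tell these copies from their members, as the following stretches show, in which the capital marks the base that differs. They are taken from GENCODE transcripts of build GRCm38, positions are counted from 1 at the A of the member's start codon, and each change is written from member to copy.
Rpl9 (chromosome 5), positions 246 to 286, G266A: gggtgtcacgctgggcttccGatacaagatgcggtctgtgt
Rpl9-ps6 (chromosome 19): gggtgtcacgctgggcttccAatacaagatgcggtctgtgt
Rpl3 (chromosome 15), positions 37 to 77, C57A: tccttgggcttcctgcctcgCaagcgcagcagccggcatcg
Rpl3-ps1 (chromosome X): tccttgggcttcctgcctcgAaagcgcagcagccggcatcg
Rps18 (chromosome 17), positions 151 to 191, A171C: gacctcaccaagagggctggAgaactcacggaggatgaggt
Gm11361 (chromosome 13): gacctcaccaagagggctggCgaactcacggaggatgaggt
Rps2 (chromosome 17), positions 40 to 80, T60A: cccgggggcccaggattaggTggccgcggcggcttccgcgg
Rps2-ps13 (chromosome X): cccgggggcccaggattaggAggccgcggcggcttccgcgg
G266A is the only difference between Rpl9 and Rpl9-ps6 over 579 aligned bases. Rpl3-ps1 differs from Rpl3 at C57A and T786C over 1209 aligned bases, and Gm11361 from Rps18 at T11A, A171C and A337C over 459. Rps2-ps13 differs from Rps2 at 7 of 882 aligned bases.

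Of the 166 copy genes that were tested, 2 were called, or 1.2%, beside 0.431% of all genes. Rpl9-ps6 had 0, 0 and 0 counts in the knockout libraries, against 5849.9, 5607 and 5373 counts in the wild-type libraries. No knockout library was assigned a single count. Against a floor of 3 counts per library the assigned level was at least 2255-fold lower in knockout (adjusted p = 5.0e-05, edgeR's quasi-likelihood test). Rpl9-ps6 and Rpl9 differ at 1 of 579 aligned coding bases, so counts on either depend on an estimated division of reads. The floor does not cover error in that division. The call held without any single library. Rps2-ps6, on chromosome 14, had 980.5, 726 and 649.9 counts in the knockout libraries, against 118, 86.9 and 72.2 counts in the wild-type libraries, and every knockout library was higher. Its log2 fold change was 2.82 ± 0.28 (adjusted p = 0.0068), and the call was lost without wild-type replicate 3 (adjusted p = 0.0743). The 3 knockout libraries were also all below the wild-type libraries for Rps2-ps10 (log2 fold change -1.04 ± 0.18, adjusted p = 0.0674) and all above them for Rpl3-ps1 (log2 fold change 0.90 ± 0.24, adjusted p = 0.283), without a call. The genotypes did not overlap for 27 of the 166 copy genes, or 16.3%, beside 12.9% of all genes.

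Gm11361 and Rps2-ps13 split the libraries in ways that the genotype labels do not follow. Gm11361 had 20286, 1224 and 185 counts in the knockout libraries, against 149, 14588 and 13439 counts in the wild-type libraries, so that it was high in knockout replicate 1 and in wild-type replicates 2 and 3 and low in the other 3 libraries. Rps2-ps13 had 123 counts in knockout replicate 3 and none to speak of in the other knockout libraries, against 0, 4505 and 2349 counts in the wild-type libraries. It was high in wild-type replicates 2 and 3 only. For Rpl3-ps1 the values were 30526, 54578 and 64108 counts in the knockout libraries, against 22656, 23872 and 19456 counts in the wild-type libraries, so that every knockout library stood above the wild-type libraries, and knockout replicates 2 and 3 furthest. Gm15500, a transcribed pseudogene whose aligned 894 bases are identical to Rpl5, had 58788, 66185 and 78129 counts in the knockout libraries, against 58242, 47291 and 41281 counts in the wild-type libraries. It held most of the combined counts of Rpl5, since copies took 67.4% to 73.04% in knockout and 66.9% to 75.3% in wild type. For Rpl13a the copies took 31.7% to 35.9% in knockout and 24.7% to 36.6% in wild type, and 42693, 38452 and 48251 of those counts in the knockout libraries lay on the protein-coding gene Gm45713, against 27225, 30757 and 28383 counts in the wild-type libraries, and the genotypes did not overlap there. Neither Rpl3-ps1 (adjusted p = 0.283) nor Gm45713 (adjusted p = 0.568) was called by edgeR's quasi-likelihood test.

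Adding the copies to their members brought the extreme members closer to the rest. Copies held 15.9, 16.8 and 17.6% of the combined counts of Rps2 in the knockout libraries, against 21.4, 59.1 and 60.3% of the combined counts of Rps2 in the wild-type libraries. With copies added, the log2 fold change of Rps2 was 0.33 ± 0.22 in place of 0.85 ± 0.44, and that of Rpl9 was 0.19 ± 0.16 in place of 0.38 ± 0.18. Rpl3 turned to 0.19 ± 0.15 in place of -0.17 ± 0.19, and Rpl10 to 0.11 ± 0.18 in place of -0.05 ± 0.20. The structural members then ranged from -0.46 to 0.33 with a median of 0.11, and 0 of 92 members were called in edgeR's quasi-likelihood test, beside 0.429% of all genes. Without wild-type replicate 1 and with copies added, 9 members were called, beside 1.19% of all genes. Rps2, Rps14, Rps27l and Rpl17 were among the 9.

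**Figure D4:**
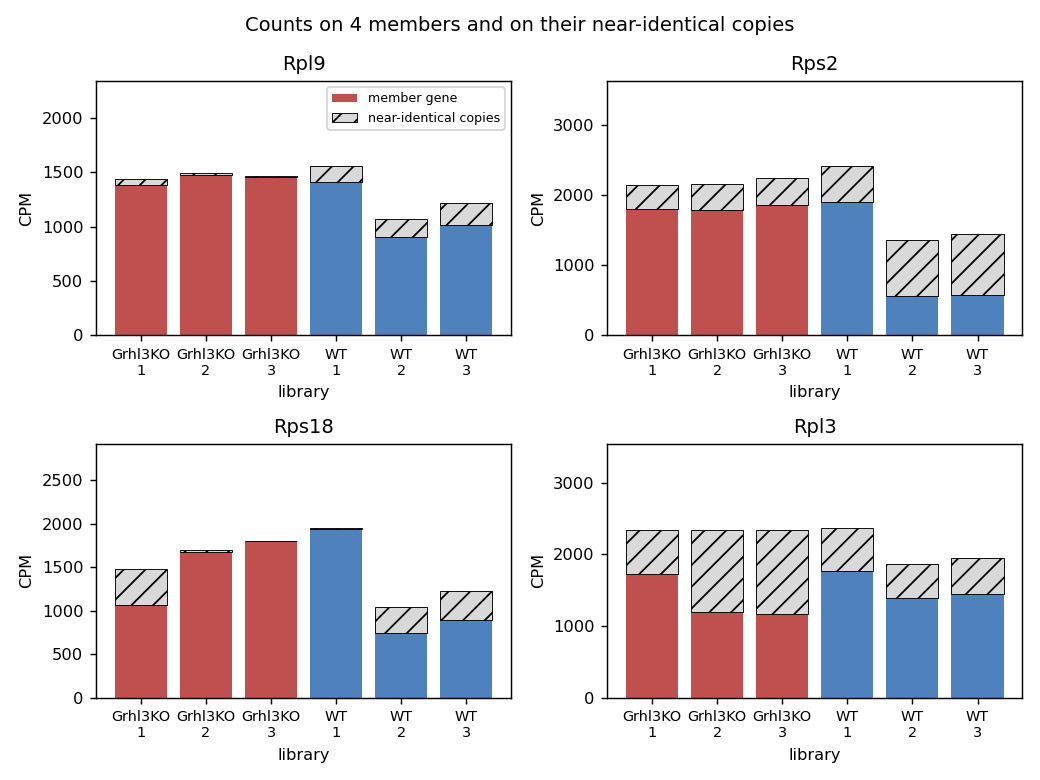
Stacked bars give CPM per library for Rpl9, Rps2, Rps18 and Rpl3 (red, knockout; blue, wild type) with the counts on their near-identical copies on top (hatched grey). The hatched part is largest relative to the member in wild-type replicates 2 and 3 for Rps2, at 59.1% and 60.3% of the combined counts, and in knockout replicates 2 and 3 for Rpl3.

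When library sizes were set to the summed counts of the structural members, so that members are read against their family, the median of all genes moved to -0.20. Relative to that, 0 structural members were called by edgeR's quasi-likelihood test, beside 0.36% of all genes. Unadjusted p-values under 0.05 were found for 2 of 76. The share of all genes with such values in this fit was not counted, so the 2 are not read as a result about the members. For both, the division of reads with near-identical copies is uncertain. Rps2 was higher in knockout, with a log2 difference of 0.84 ± 0.26, and Rpl11 was lower, with -0.40 ± 0.16. Their adjusted p-values were 0.574 for Rps2 and 0.838 for Rpl11.

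Per transcript, 1 call was found within Rps24, whose gene total did not change beyond its error. Rps24-203 (Rps24, GRCm38 chr14:24487125-24496959) is annotated as a processed transcript of 461 bases without a coding sequence. It had 7491, 7319 and 7986 counts in the knockout libraries, against 0.00135, 0 and 0 counts in the wild-type libraries, so every knockout library was high and every wild-type library was at or next to 0. Against a floor of 3 counts per library the assigned level was at least 2097-fold higher in knockout (adjusted p = 0.0206, edgeR's quasi-likelihood test per transcript). Rps24-203 shares 388 of its 461 bases with the coding transcript Rps24-201, so this level depends on an estimated division of reads. The floor does not cover error in that division. Of 364 tested member transcripts 1 was called, and of all 47536 tested transcripts also 1, or 0.0021%, which is this one. The call was lost without any single knockout library (adjusted p from 0.3 to 0.487) and without wild-type replicate 3 (adjusted p = 0.0512).

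Rps24-203 differs from the coding transcript Rps24-201 in its first 73 bases and shares the remaining 388. The stretches around the point where both become alike are shown to mark what separates them, with the 15 bases before that point in capitals. In Rps24-201 the last 2 capitals and the first shared base form its start codon.
Rps24-203 (chromosome 14), transcript bases 59 to 88: AAAATGGCTTTTTCAgaatgacacagtaac
Rps24-201 (chromosome 14), transcript bases 63 to 92: CGCCGTAGCCATCATgaatgacacagtaac
Rps24-201 had 0, 0 and 63.8 counts in the knockout libraries, against 4932, 5492 and 1395 counts in the wild-type libraries, the reverse order of Rps24-203, without a call (adjusted p = 0.959, edgeR's quasi-likelihood test). Rps24-207 had 0, 11.1 and 0 counts in the knockout libraries, against 6464, 20.96 and 11542 counts in the wild-type libraries. It was high in wild-type replicates 1 and 3 and near 0 elsewhere. Most Rps24 counts lay on Rps24-208, a processed transcript, which took 58.3, 57.3 and 57.2% in the knockout libraries, against 51.6, 58.1 and 48.8% in the wild-type libraries, and on the coding Rps24-202, which took 25.1, 27.1 and 27.4% in the knockout libraries, against 28.3, 25.7 and 19.9% in the wild-type libraries. These 2 transcripts overlapped between the genotypes.

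**Figure D5:**
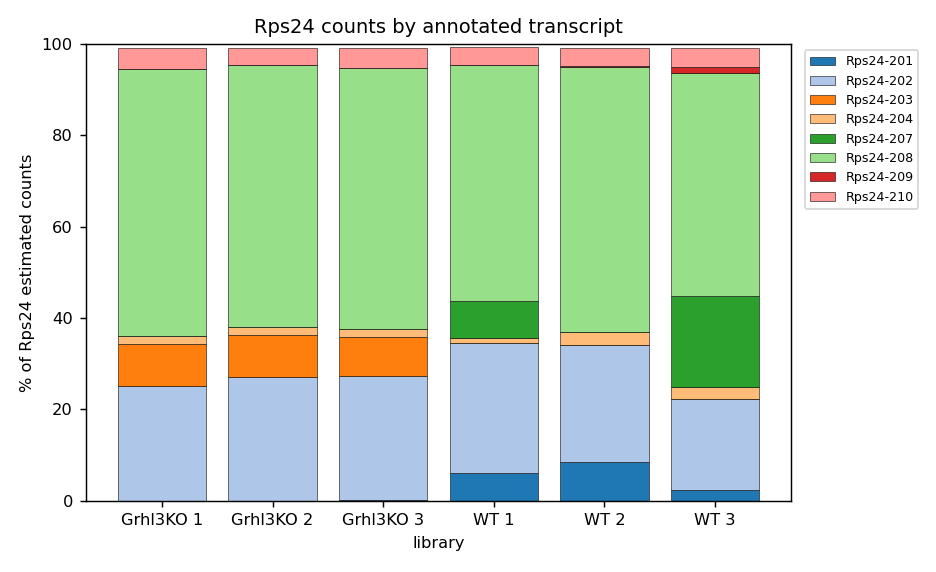
Stacked bars give the share of Rps24 estimated counts (%) on each annotated transcript that reached 1% in some library, with knockout libraries on the left and wild-type libraries on the right. Rps24-203 takes 8.34% to 9.25% of the counts in the 3 knockout libraries and none to be seen in the wild-type libraries, which hold Rps24-201 and, in replicates 1 and 3, Rps24-207 instead.

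Other member transcripts differed without a call by edgeR's quasi-likelihood test. Rpl11-201 had 503, 474 and 542 counts in the knockout libraries, against 2861, 4260.1 and 2316 counts in the wild-type libraries, a log2 fold change of -2.84 ± 0.19 with an adjusted p of 0.0976. All knockout libraries were lower, while Rpl11-201 held at most 11.3% of the gene's counts in any library. Rpl26-206 had 214, 52.6 and 51.9 counts in the knockout libraries, against 23359.5, 10739 and 14223 counts in the wild-type libraries (log2 fold change -7.53 ± 0.93, adjusted p = 0.311), and again no knockout library reached a wild-type library. Rpl12-203 had 3325, 2818 and 3521 counts in the knockout libraries, against 999.8, 1569.5 and 1294 counts in the wild-type libraries, higher in each knockout library (log2 fold change 1.11 ± 0.11, adjusted p = 0.249). The genotypes did not overlap for 52 of 364 member transcripts, or 14.3%, beside 9.14% of all tested transcripts. DESeq2 called 10 member transcripts, among them Rps24-203, Rpl11-201, Rpl26-206 and Rpl12-203, where it called 1.11% of all transcripts. Division of reads between transcripts of a gene is estimated, and a transcript with few bases of its own is less certain than the gene total.

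Other genes of ribosome production and translation gave 0 calls as well. Rack1, a ribosomal protein whose symbol the rule does not reach, was not called, with a log2 fold change of 0.17 ± 0.17. Among translation factors and other TOP mRNAs, 0 of 20 were called and 19 had a positive value, with a median of 0.12. Eif2s3x, an X-linked subunit of an initiation factor, had the smallest p there, at 402, 373 and 337 CPM in the knockout libraries, against 341, 219 and 229 CPM in the wild-type libraries (log2 fold change 0.50 ± 0.18, adjusted p = 0.515). Its libraries overlapped only through wild-type replicate 1. Of 39 ribosome biogenesis genes 0 were called and 36 had a positive value, with a median of 0.08, and Heatr1, a factor for ribosomal RNA transcription and processing, had the smallest p (log2 fold change 0.32 ± 0.12). Of 16 genes of TOP regulation and mTORC1 0 were called, with a median of 0.04, and Myc had the smallest p (log2 fold change 0.38 ± 0.13, adjusted p = 0.481).

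The p53 targets had a larger median than these lists. Of 18 genes, 0 were called by edgeR's quasi-likelihood test and 17 had a positive value, with a median log2 fold change of 0.33 and 8 unadjusted p-values under 0.05, beside 7.22% of all genes. Sesn2, a stress sensor that inhibits mTORC1, had 23.8, 23.1 and 22.6 CPM in the knockout libraries, against 15.7, 15.2 and 16.5 CPM in the wild-type libraries (log2 fold change 0.55 ± 0.10, adjusted p = 0.0789). Cdkn1a, an inhibitor of the cell cycle, had 82.3, 49.7 and 72.6 CPM in the knockout libraries, against 42.6, 28.7 and 35.2 CPM in the wild-type libraries (log2 fold change 0.94 ± 0.20, adjusted p = 0.154). Both were higher in each knockout library than in any wild-type library, without wild-type replicate 1 standing apart. Btg2, an antiproliferative gene, had a log2 fold change of 0.44 ± 0.11 (adjusted p = 0.256). Among 12 epithelial markers 1 was called, the claudin gene Cldn7, which rose (log2 fold change 1.27 ± 0.19, adjusted p = 0.0337), and the summed markers ranged from 3014 to 4197 CPM in knockout and from 1608 to 2854 CPM in wild type. Of 10 markers each for cartilage, muscle, endothelium and macrophages 0 were called. Cartilage markers summed to 2786 to 4333 CPM in knockout and to 4369 to 6445 CPM in wild type. By edgeR's quasi-likelihood test, 8 of 12 epithelial, 4 of 10 cartilage, 3 of 12 erythroid and 2 of 10 endothelial markers had unadjusted p-values under 0.05. Muscle, macrophage and limb mesenchyme markers had 0. Median log2 fold changes were 0.75 for epithelial, 0.33 for erythroid and -0.45 for cartilage markers. Shifts of this size were thus not particular to the p53 targets. The part of cell composition in any of these values was not tested.

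As a comparison of length, 2 further gene lists were read. Median transcript length was 794 bases for respiratory chain genes and 1180 bases for mitochondrial ribosomal protein genes. Of the 76 tested structural members, 11 had 1000 to 2000 bases and 0 were longer, so the second list matches them less well. Of 78 mitochondrial ribosomal protein genes 0 were called, with a median log2 fold change of 0.06, and of 75 tested respiratory chain genes 0 were called, with a median of 0.07. Summed CPM of the respiratory chain genes was 8267, 8232 and 8488 CPM in the knockout libraries, against 9541, 6862 and 6944 CPM in the wild-type libraries. Wild-type replicate 1 was the highest and wild-type replicates 2 and 3 were the lowest libraries, as for the ribosomal proteins. Without wild-type replicate 1, 4 of 75 respiratory chain genes, 2 of 18 p53 targets, 1 of 20 translation factors and other TOP mRNAs and 1 of 12 epithelial markers were called higher, where 0.789% of all genes were. Erythroid markers did not follow the order of the libraries, with 6184, 8412 and 10812 CPM in the knockout libraries, against 7381, 8360.4 and 5195 CPM in the wild-type libraries over 12 markers.

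In the authors' deposited table of the genotype comparison, which lists 941 genes, 1 member appears. It is Rpl9, with a log2 fold change of 0.38, a p of 0.0448 and a false discovery rate of 0.756 in the authors' deposited table. A further 15 genes of the authors' deposited table are near-identical copies of members. Of these, 6 have a false discovery rate under 0.05, beside 228 of all 941 genes there. Gm10420, a copy at rank 898 by p, has a p of 0.0466 in the authors' likelihood ratio comparison. The 941 genes may thus have been limited by p, and they are not read as a full comparison. Rpl9-ps6 has the lowest false discovery rate of all genes in the authors' deposited table, at 1.51e-304, and also the lowest log2 fold change there.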

How the data were processed

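RNA of 6 handpad samples was quantified by the authors with kallisto, per the submitters' processing notes, which also name FastQC and the build mm10. Their versions are not stated. The deposited transcript tables give an estimated count that need not be whole, TPM, and a length and effective length, per the file headers. The authors' deposited comparison table has columns for fold (log2), mean CPM (log2), a likelihood ratio (a score) and p-values, per the file headers.

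Transcripts were matched to GENCODE M21 by unversioned identifier (110203 of 111462; the others, with 0.504% to 0.566% of counts, stayed out), counts were summed per gene and rounded, and 34989 genes resulted. Knockout minus wild type was tested with edgeR 4.0.16 in R 4.3.3 (glmQLFit and glmQLFTest, TMM, filterByExpr at 10 counts and a total of 15, Benjamini-Hochberg, call under 0.05). SEs were derived from the fit as the fold change over the square root of F. Libraries held 38052692 to 56037639 counts. Reads carry no molecular identifiers, so floors of 3 counts cover counting error only.

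Copies were found with blastn 2.17.0. The scripts were tested on simulated counts. Members, lists and the rule for named genes were chosen with earlier results of these data known. That rule took called members, the 8 highest by TPM, the 6 highest and lowest fold changes from a mean of 50 TPM, the 4 smallest p-values, like-named, kinase, X-linked and weakly counted members, and up to 3 genes of each list. Rpl5, Rpl38, single transcripts and copy genes were named after their values were seen. Copies, and alternatives with them, the length offset, Rps2 left out and TPM ratios were added after the data were seen. DESeq2 1.42.0, limma-voom (limma 3.58.1), other scalings and filters, covariates, a replicate block and each library left out were alternatives. Some results are not reported here.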

Additional observations from a re-analysis of the deposited data

How the results depend on the processing

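The count of 0 called members held under 13 of 14 planned settings with all 6 libraries. It became 1 (Rps2) with mean transcript length as a covariate and, in a fit added later, 1 (Rps2) with the length offset as one. With the length offset 1.04% of all genes were called, and with mean transcript length that share was not counted. Neither fit was run with copies added. Leaving out single libraries gave 0 to 11 called members. Without wild-type replicate 1, 9 members were called with copies added, beside 1.19% of all genes, and 8 with effective length offsets. For the 8, the share of all genes called was not counted, so they are not read as a result about the members. The members' median stayed between 0.06 and 0.15 under the other settings with all 6 libraries, except -0.33 with Y-linked expression as a covariate, which leaves wild-type replicate 1 as the main comparison. With library sizes from the structural members, 1 member (Rpl36) was called without a filter, and 0 to 9 with single libraries left out. Rpl36 had 173 counts in wild-type replicate 1 and at most 2 in any other library. The share of all genes called in the fit without a filter was not counted, so this call is not read as a result about the members. The 9 without wild-type replicate 1 were 6 kinase genes, Rps2, Rps27l and Rpl11. With all 6 libraries this scaling put the median of all genes at -0.20. The share of all genes called without wild-type replicate 1 was not counted, so the 9 are not read as a result about the members. Called member transcripts numbered 10 with DESeq2 and 0 to 1 with single libraries left out. Over the other gene lists, cell type markers left out, 0 to 12 genes were called with single libraries left out, 4 of the 12 Y-linked. The difference in median log2 fold change between genes under 700 and over 4000 bases was 0.05 and ranged from -0.12 to 0.42 with single libraries left out. The difference in the ratio of large to small subunit counts was -0.0675, and -0.0368 with -ps genes added, -0.0280 with copies added and -0.0407 without Rps2. Among the members with a printed fold change, another scaling over all genes turned only Rpl39. Few counts limit the precision of the shortest members.

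Single members changed direction as follows, on the log2 scale, and the causes were not tested. With Y-linked expression as a covariate the fold change was -0.48 for Rpl22l1, -0.38 for Rpl36al, -0.63 for Rpl39, -0.076 for Rpl7l1, -0.32 for Rps12, -0.38 for Rps14, -0.40 for Rps18, -0.17 for Rps2, -0.35 for Rps24. It was -0.46 for Rps27l, -0.086 for Rps3, -0.25 for Rps4x, 0.24 for Rps6ka3, -0.036 for Rps6ka4, 0.0046 for Rps6ka5, 0.084 for Rps6ka6, 0.014 for Rps6kb1 and -0.062 for Rps7. With copies added it was 0.19 for Rpl3 and 0.11 for Rpl10, and with -ps genes added 0.18 and 0.11. Rpl39 was at -0.0049 with DESeq2, -0.0048 with its size factors, -0.0012 with a minimum count of 50, -0.012 with plain totals, -0.0016 with upper quartile scaling and -0.032 with the transcript length covariate, where Rps6ka3 was at 0.040. Rplp1 was at 0.046 with effective length offsets, 0.15 with the length offset as a covariate and 0.12 with limma-voom. With single libraries left out, values ranged from -0.17 to 0.21 for Rpl10, from -0.14 to 0.35 for Rpl22l1, from -0.062 to 0.38 for Rpl36al, from -0.20 to 0.41 for Rpl39, from -0.36 to 0.76 for Rplp1, from -0.34 to 0.14 for Rps19bp1. They ranged from -0.57 to 0.12 for Rps21, from -0.076 to 0.29 for Rps24, from -0.0057 to 0.28 for Rps4x, from -0.12 to 0.062 for Rps6ka3 and from -0.14 to 0.029 for Rps6ka6.

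The replicate numbers did not pair the libraries, since deviations from the group means of same-numbered libraries correlated at -0.33, -0.10 and -0.23. With the replicate block, 0 members were called, their median was 0.15, 0 member transcripts were called in place of 1, Rplp1 was at 0.16, and 2 genes of these other lists, cell type markers left out, were called in place of 0. The removal of mitochondrial and globin genes cannot move a ratio of 2 shares and was not run for it.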
